A study of Homo sapiens with 12 samples.

Results

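The nuclear subunits of respiratory Complexes II to V were taken as the protein-coding genes whose names begin with SDHA to SDHD, SDHAF, UQCR, CYC1, COX4 to COX8 or ATP5. The rule found 55 genes among the 29657 genes listed for SCC15 cells and 52 among the 31055 genes listed for SCC25 cells, and all 52 were listed in both. Complex II held 8 members, Complex III 10, Complex IV 16 in SCC15 and 13 in SCC25, and Complex V 21. COX4I2, COX6A2 and COX8C were listed for SCC15 only. RNA was sequenced from the human oral squamous cell carcinoma lines SCC15 and SCC25, both wild type by their labels, in 3 libraries per treatment and cell line. The treated cells are labelled ACGs, for annonaceous acetogenins, and received squamocin at 10 µg/mL for 24 h according to the methods of the study, and the control cells received the solvent DMSO. The question asked of these libraries was how squamocin changes gene expression in each line. Each line is a single established culture, and the labels do not say whether the libraries of a group came from separate cultures, so that p-values measure the spread between these libraries, which may be technical.

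Complexes II to V sit in the inner mitochondrial membrane. Complex II oxidises succinate and feeds electrons to ubiquinone, Complex III passes them to cytochrome c, Complex IV passes them to oxygen, and Complex V, the ATP synthase, uses the proton gradient to make ATP. Complex II is built from nuclear genes only, whereas Complexes III, IV and V combine nuclear subunits with catalytic or channel subunits encoded by mitochondrial DNA, so that 2 genomes supply their parts. Acetogenins such as squamocin are known as inhibitors of Complex I, whose subunits are not members here.

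Reads on genes numbered 16665563 to 22748845 per library. Values are normalized counts, that is reads scaled by a library size factor which the authors chose separately for SCC15 and SCC25, so that levels are not compared between the lines. 1 library stood apart before any gene was considered. The third squamocin library of SCC15 differed from the other squamocin libraries of that line by a chi-square per degree of freedom of 64.1 and 56.8, against 1.67 to 9.95 for every other pair of replicates, and results for SCC15 are therefore also given without it. In SCC25 all 8 squamous epithelial markers examined were at or above 83.7 normalized counts in every library, while in SCC15 KRT5, TP63, EPCAM and DSG3 did not exceed 22.7 in any library and KRT14, SFN, KRT6A and CDH1 ranged from 112 upwards. Of 8 markers of other cells, 7 were listed in SCC15, where PTPRC, MYH7, PDGFRB and COL1A2 did not exceed 5.97, while ACTC1 ranged from 13.4 to 53.5, PECAM1 from 63.8 to 174 and COL1A1 from 97.1 to 158. In SCC25 5 were listed, with ALB at 0 to 10.2, COL1A2 at 5.55 to 18.7, PECAM1 at 0 to 81.9, PDGFRB at 164 to 196 and COL1A1 at 554 to 1040.2, and the part of such cells in the results was not tested.

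In SCC15 cells 37 of the 49 members tested were higher with squamocin, 1 was lower and 11 did not pass the threshold, against 30.9% of all 15902 genes tested called higher and 30% called lower (limma, two-sided, with 1 added before taking log2, Benjamini-Hochberg adjusted p under 0.05). The median log2 fold change was 0.81 over the members and 0.012 over all genes tested. In SCC25 cells 36 of 50 members were higher, 7 were lower and 7 did not pass, against 38.3% and 38.5% of all 16539 genes, with a median of 0.46 over the members and -0.015 over all genes. The higher members in both lines therefore made up a larger share than among all genes, and lower members were fewer. Every squamocin library lay above every DMSO library for 39 of 49 members in SCC15 (35.7% of all genes) and 37 of 50 in SCC25 (39.4%), and below for 1 (34.9%) and 7 (39.6%). Without the third squamocin library of SCC15, 40 members were higher and 1 lower, all 37 earlier calls among them, at a median of 0.52. In that fit 38.0% of all genes were called higher and 37.6% lower. Without any 1 of the DMSO libraries of SCC15, 26 members were called higher, against 24.8% to 25.1% of all genes. ATP5F1A, ATP5F1C, ATP5F1D, ATP5IF1, ATP5MC3, ATP5ME, ATP5PD, COX5B, SDHAF4 and UQCR10 lost their call with each of these libraries left out, ATP5MPL without replicate 1 or 2 and SDHA without replicate 3.

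The size of the rise depended on how the libraries were scaled. With every library scaled to the same total, the median of all genes moved by -0.49 in SCC15 and -0.21 in SCC25 on the log2 scale, leaving 20 members called higher and 2 called lower in SCC15, against 14.8% and 50.5% of all genes, and 28 and 10 in SCC25, against 30.4% and 47.4%. The higher calls lost under this scaling were those of SDHA, SDHD, SDHAF4, UQCR10, UQCRHL, COX5A, COX5B, ATP5F1A, ATP5F1C, ATP5F1D, ATP5IF1, ATP5MC3, ATP5MD, ATP5ME, ATP5MF, ATP5MPL and ATP5PD in SCC15 and those of SDHB, UQCRC1, UQCRH, COX4I1, COX7A2, ATP5F1B, ATP5PB and ATP5PF in SCC25. The sign turned for 7 members in SCC15 (SDHC, SDHAF1, SDHAF2, SDHAF3, UQCRFS1, ATP5PB and ATP5PF) and for 8 in SCC25 (SDHB, SDHC, SDHAF4, UQCRC1, UQCR11, COX4I1, COX7A2 and ATP5PB). In bulk RNA, a change in the number of cells of a kind and a change in RNA per cell cannot be told apart. The plot of all members shows the 4 complexes side by side.

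**Figure D1:**
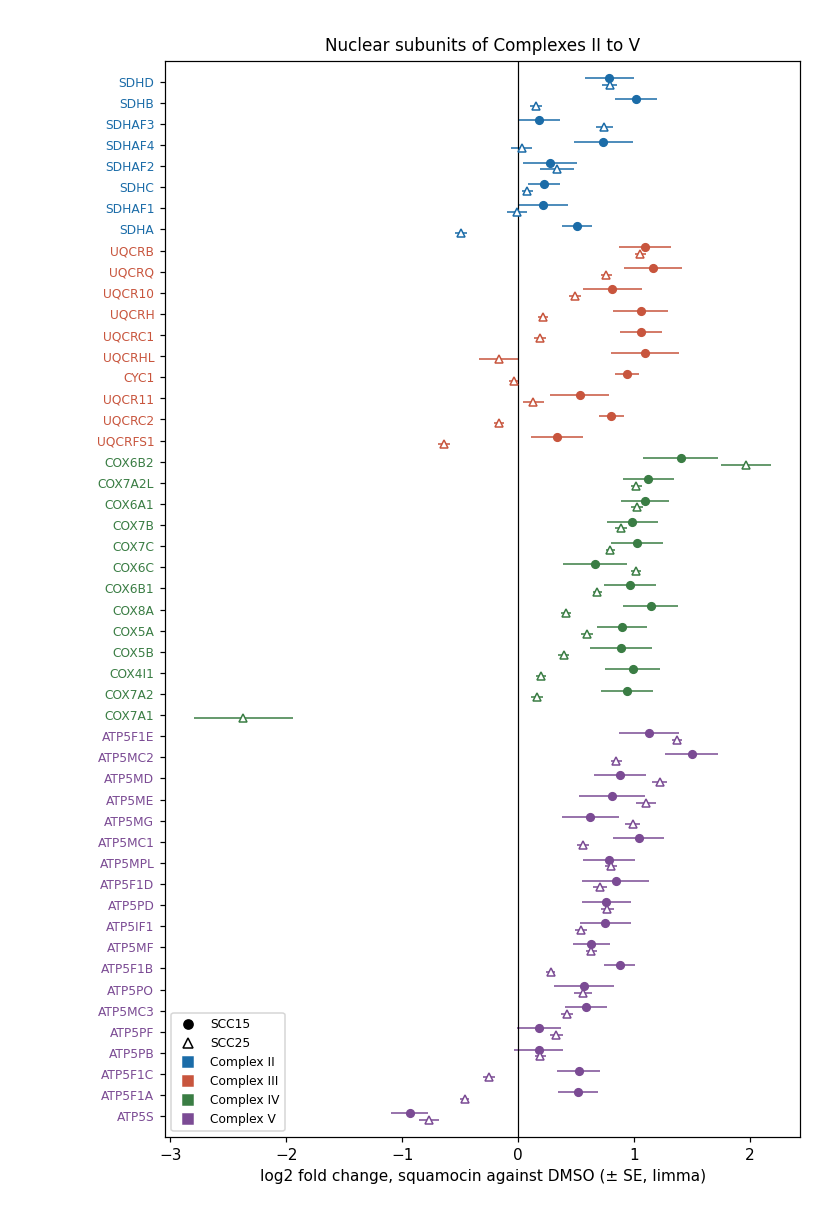
Log2 fold change with squamocin (x axis, limma, authors' scaling) of each tested member (y axis) in SCC15 (filled circles) and SCC25 (open triangles), with bars of ± 1 SE and colours for the complex. Nearly all SCC15 values lie right of 0, while several Complex II and III members and the F1 subunits ATP5F1A and ATP5F1C lie left of 0 in SCC25. With equal library totals the median of all genes moves by -0.49 in SCC15 and -0.21 in SCC25.

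The complexes did not rise equally, and their order differed between the lines. In SCC15 the median log2 fold change was 0.39 over Complex II, 1.00 over Complex III, 0.99 over Complex IV and 0.75 over Complex V. In SCC25 it was 0.12, 0.16, 0.68 and 0.56. Complex III thus stood with Complex IV in SCC15 and with Complex II in SCC25. The Complex II medians include the assembly factors SDHAF1 to SDHAF4, whereas assembly factors of Complexes III to V are not members. The Complex II core subunits alone had medians of 0.65 in SCC15 and 0.12 in SCC25, and its assembly factors 0.25 and 0.18. Members called higher were 4 of 8, 8 of 10, 11 of 12 and 14 of 19 in SCC15, against 30.9% of all genes. In SCC25 they were 3 of 8, 5 of 10, 12 of 13 and 16 of 19, against 38.3%, which the Complex II count did not exceed. A difference between complexes within a library does not depend on the scaling of that library. The median of Complex III minus that of Complex IV was 0.05, 0.05 and -0.08 in the squamocin libraries of SCC15 and -0.53, -0.54 and -0.59 in those of SCC25. The same difference lay between -0.0175 and 0.0275 in the 6 DMSO libraries. Each gene was centred on its own DMSO mean, which keeps that range narrow, so that it is no measure for the squamocin libraries. The squamocin values took both signs in SCC15 and were all negative in SCC25. Complex II minus Complex IV was -0.54, -0.38 and -0.79 in SCC15 and -0.53, -0.51 and -0.66 in SCC25, negative in every squamocin library. These medians are descriptions without a test, and leaving out the third squamocin library of SCC15 gave 0.22, 0.74, 0.70 and 0.47 for Complexes II, III, IV and V in that line. Scaled to equal library totals, the median of Complex II, assembly factors included, turned to -0.10 in SCC15 and -0.09 in SCC25. That of Complex III in SCC25 turned to -0.05.

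**Figure D2:**
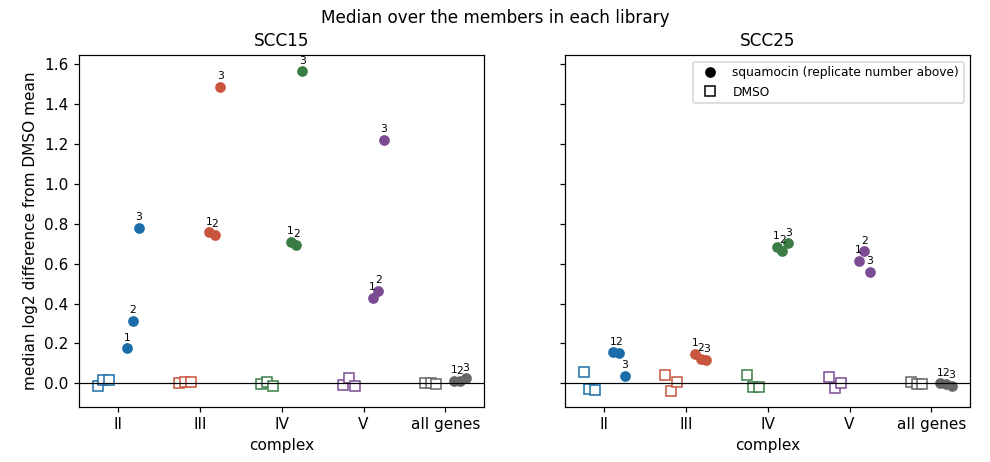
Median over the tested members of each complex of the log2 value minus the DMSO mean of the same gene (y axis) in every library, with squamocin as numbered filled circles, DMSO as open squares and all tested genes in grey. Squamocin replicate 3 of SCC15 lies above the other 2 in each complex, and Complex III lies beside Complex IV in SCC15 but beside Complex II in SCC25. With equal library totals the Complex II medians of both lines and the Complex III median of SCC25 turn negative.

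Nuclear respiratory genes are known to share promoter sites for NRF-1, for the ETS factor GABP and for YY1, so the promoters of the members were searched for the letters of these sites. RefSeq promoter windows (GRCh38.p14, 250 bases before to 50 after the start) matched 41 of 55 members, 2 of them under the newer symbols ATP5MK and ATP5MJ. SDHC, CYC1, UQCRB, UQCRHL, COX4I2, COX6C, COX7A1, ATP5F1B, ATP5F1D, ATP5MC3, ATP5MF, ATP5MF-PTCD1, ATP5MGL and ATP5S had no window in the table. On either strand, GCGCATGC, the central letters of the NRF-1 site, was found for 9 of 41 members (22.0%), against 3.68% of all 27305 genes with a window. CCGGAAGT, the letters of an ETS site, was found for 11 members (26.8%) against 4.95%, and AAGATGGCG, those of YY1, for 3 (7.32%) against 2.14%. The NRF-1 letters were in 3 of 7 Complex II windows (SDHB, SDHD, SDHAF2), 0 of 7 Complex III windows, 2 of 13 Complex IV windows (COX5B, COX6A1) and 4 of 14 Complex V windows (ATP5F1C, ATP5MC2, ATP5ME, ATP5PF). The ETS letters were in 2, 3, 2 and 4 windows of Complexes II, III, IV and V, where UQCRH, UQCRQ and UQCR11 held them for Complex III. These matches describe letters in a window and are not bound sites. Stretches of 30 bases around the NRF-1 letters follow for a member of each complex that holds them before a RefSeq start. Where several did, the member with the highest mean normalized count, averaged over both lines, was taken. The stretches are read 5′ to 3′ on the strand of the gene, with the match in capitals as the reverse complement. For ATP5MC2 that RefSeq start lies inside the listed span of the gene (chr12:53632726-53677408, reverse strand), not at its outer end. These 3 members were chosen by their counts among those with a match, not by their response. Whether the letters bear on any change was not tested.
SDHB (chr1:17054214-17054243, reverse strand): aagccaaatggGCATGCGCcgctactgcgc
COX5B (chr2:97645915-97645944, forward strand): ggcagagctggGCATGCGCaatttccgccc
ATP5MC2 (chr12:53676105-53676134, reverse strand): gcccgggtcacGCATGCGCtgagccttcct

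Complex II, its assembly factors included, had the lowest median of the 4 complexes in SCC15. Its core subunits alone had a median of 0.65 there, against 0.75 for Complex V. In SCC25 Complex II could not be ordered against Complex III, since Complex II minus Complex III was 0.0070, 0.030 and -0.077 in the squamocin libraries. Its subunits differed among themselves. SDHA (chr5:218241-256700, forward strand, GRCh38), the flavoprotein that oxidises succinate, had 8572, 8985 and 11621 with squamocin and 6902, 6788 and 6651 with DMSO in SCC15. In SCC25 it had 2992, 2754 and 3165 with squamocin and 4224, 4180.0 and 4128 with DMSO. The treatments did not overlap in either line, but squamocin was above DMSO in SCC15 and below it in SCC25. The log2 fold change was 0.51 ± 0.13 (SE, n = 3 per treatment, limma adjusted p = 0.0113) in SCC15 and -0.49 ± 0.05 (SE, n = 3 per treatment, limma adjusted p = 1.57e-06) in SCC25. The SCC15 call was lost without DMSO replicate 3 and with equal library totals, where its log2 fold change was 0.0094, and the SCC25 call was kept. SDHB (chr1:17018722-17054170, reverse strand), the iron-sulphur subunit that hands electrons on, counted 2517, 2405 and 3934 with squamocin and 1445, 1505 and 1321 with DMSO in SCC15 and 1668, 1591 and 1541 with squamocin and 1514, 1373 and 1431 with DMSO in SCC25. Squamocin stood above DMSO without overlap in both lines, by 1.02 ± 0.19 (SE, n = 3 per treatment, limma adjusted p = 0.00253) in SCC15 and only 0.15 ± 0.05 (SE, n = 3 per treatment, limma adjusted p = 0.0201) in SCC25 on the log2 scale. The SCC25 call was lost without squamocin replicate 1 or DMSO replicate 2 or 3, and the SCC25 value turned to -0.055 with equal library totals.

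The membrane anchors of Complex II differed from each other. SDHD, which helps to bind ubiquinone, counted 1209, 1185 and 2082 with squamocin and 830.1, 808 and 865 with DMSO in SCC15 and 1491, 1588 and 1372 with squamocin and 907, 837 and 825 with DMSO in SCC25, and rose in both lines, by 0.79 ± 0.21 (limma adjusted p = 0.0135) and 0.79 ± 0.06 (limma adjusted p = 1.65e-07), with the difference at 0.00 ± 0.23 (SE, limma adjusted p = 0.99). Its SCC15 call was lost at 0.29 (limma adjusted p = 0.137) once library totals were made equal. SDHC, the other anchor, counted 2172, 2340.2 and 3129 with squamocin and 2119.9, 2163 and 2185 with DMSO in SCC15, where the treatments overlapped in range, and 1992, 2150.5 and 1947 with squamocin and 1910.0, 1906 and 1947 with DMSO in SCC25. Neither change passed the threshold, at 0.22 ± 0.14 (SE, n = 3 per treatment, limma adjusted p = 0.198) and 0.08 ± 0.05 (SE, n = 3 per treatment, limma adjusted p = 0.161). SDHC was called lower with equal library totals in both lines, at -0.28 in SCC15 and -0.13 in SCC25.

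Among the assembly factors, which load cofactors onto SDHA and SDHB or guard the subunits, 1 of 4 was higher in each line, and not the same one. Of all genes, 30.9% were called higher in SCC15 and 38.3% in SCC25. SDHAF4, which acts on the flavinated SDHA, counted 188, 177 and 352 with squamocin and 125, 139 and 144 with DMSO in SCC15, where it rose by 0.73 ± 0.26 (SE, n = 3 per treatment, limma adjusted p = 0.039), a call lost without any 1 of the DMSO libraries and with equal library totals (0.24). In SCC25 SDHAF4 counted 324, 329.6 and 288 with squamocin and 335, 301 and 285 with DMSO and did not pass (0.03 ± 0.09, limma adjusted p = 0.769). SDHAF3, an assembly factor for the iron-sulphur subunit, counted 516, 574 and 583 with squamocin and 330.4, 324 and 342 with DMSO in SCC25 and rose by 0.74 ± 0.07 (SE, n = 3 per treatment, limma adjusted p = 1.21e-06). In SCC15 SDHAF3 counted 291, 345 and 484 with squamocin and 311, 337 and 320.4 with DMSO, with overlapping treatments and a value of 0.18 ± 0.18 (SE, n = 3 per treatment, limma adjusted p = 0.417). SDHAF1 and SDHAF2, which serve the iron-sulphur clusters and the flavin, did not pass in either line, with SDHAF1 at 0.22 in SCC15 and -0.01 in SCC25 and SDHAF2 at 0.28 and 0.33. With equal library totals SDHAF1 was called lower in SCC25, at -0.22 (limma adjusted p = 0.0358). SDHAF1 and SDHAF3 were below 0 in SCC15 without the third squamocin library. SDHAF2 in SCC25 was near the threshold (limma adjusted p = 0.0538) and passed it in edgeR.

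Complex III had the lowest median of the difference between the lines, -0.86, of the 4 complexes. Its 4 core subunits, grouped by role after the values had been seen, lay between 0.34 and 1.06 in SCC15 and between -0.64 and 0.19 in SCC25. Cytochrome c1, the product of CYC1 (chr8:144095027-144097525, forward strand) that donates electrons to cytochrome c, counted 6392, 7499 and 7757 with squamocin and 3839, 3715 and 3700.5 with DMSO in SCC15. In SCC25 CYC1 counted 3859, 3594 and 3965 with squamocin and 3908, 3878 and 3911 with DMSO. All squamocin values exceeded all DMSO values in SCC15 and the treatments overlapped in SCC25, at 0.94 ± 0.10 (SE, n = 3 per treatment, limma adjusted p = 0.000241) and -0.04 ± 0.04 (SE, n = 3 per treatment, limma adjusted p = 0.472). With equal library totals CYC1 was called lower in SCC25, at -0.24 (limma adjusted p = 0.000386). UQCRC2 (chr16:21952660-21983660, forward strand), a core protein on the matrix side, counted 4517, 4791 and 5732 with squamocin and 2877, 2905 and 2792 with DMSO in SCC15 and 3399, 3299 and 3463 with squamocin and 3934, 3738 and 3738 with DMSO in SCC25. It did not overlap between treatments in either line and was called in opposite directions, at 0.80 ± 0.11 (SE, n = 3 per treatment, limma adjusted p = 0.000632) in SCC15 and -0.17 ± 0.04 (SE, n = 3 per treatment, limma adjusted p = 0.00278) in SCC25. Both calls were kept with equal library totals, at 0.31 and -0.38.

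The Rieske iron-sulphur protein UQCRFS1 (chr19:29205321-29213541, reverse strand), which takes electrons from ubiquinol, had the lowest log2 fold change of Complex III in both lines. It counted 1549, 1763 and 3009.8 with squamocin and 1548, 1611 and 1638 with DMSO in SCC15, where only the third squamocin library lay far above DMSO and the change did not pass, at 0.34 ± 0.23 (SE, n = 3 per treatment, limma adjusted p = 0.232). Without that library the SCC15 value was 0.048 (limma adjusted p = 0.447). In SCC25 it counted 827, 817 and 803 with squamocin and 1289, 1243 and 1277 with DMSO, with squamocin below DMSO throughout, and was lower at -0.64 ± 0.05 (SE, n = 3 per treatment, limma adjusted p = 1.29e-07). UQCRC1, the partner core protein of UQCRC2, rose in both lines, by 1.06 ± 0.18 in SCC15 (limma adjusted p = 0.00193) and by 0.19 ± 0.05 in SCC25 (limma adjusted p = 0.00582), but its SCC25 value was -0.021 with equal library totals (limma adjusted p = 0.739).

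The small subunits of Complex III, which surround the core, were higher in 4 of 5 genes in each line, from 0.53 to 1.17 in SCC15 and from 0.13 to 1.06 in SCC25 over the 5. Among all genes 30.9% were called higher in SCC15 and 38.3% in SCC25. UQCRQ, a small subunit next to cytochrome b, had the highest SCC15 value of Complex III, with 4071, 3949.7 and 7893 with squamocin and 2341, 2130.0 and 2254 with DMSO, no overlap and a rise of 1.17 ± 0.25 (SE, n = 3 per treatment, limma adjusted p = 0.00543). In SCC25 UQCRQ counted 3049, 2922 and 3052 with squamocin and 1841, 1688 and 1805 with DMSO and rose by 0.76 ± 0.05 (limma adjusted p = 1.34e-08). UQCRB, which helps to form the ubiquinone site, had the highest SCC25 value, with 4323, 4302 and 4304 with squamocin and 2153, 1960.0 and 2112 with DMSO, no overlap and a rise of 1.06 ± 0.05 (SE, n = 3 per treatment, limma adjusted p = 4.51e-10). In SCC15 UQCRB rose by 1.10 ± 0.22 (limma adjusted p = 0.00426). UQCR10 was higher in both lines (0.81 and 0.49), as was the hinge protein UQCRH (1.06 and 0.21), calls lost with equal library totals for UQCR10 in SCC15 (0.32) and UQCRH in SCC25 (0.0043), and UQCR11 passed in neither (0.53 and 0.13). UQCRHL, a near-identical copy of UQCRH, counted 168, 148 and 341 with squamocin and 92.99, 91.7 and 100.4 with DMSO in SCC15 and 100.4, 86.3 and 74.4 with squamocin and 116, 84.6 and 92.9 with DMSO in SCC25, higher in SCC15 (1.10 ± 0.30 (SE, n = 3 per treatment, limma adjusted p = 0.0142)) and not past in SCC25 (-0.17 ± 0.17 (SE, n = 3 per treatment, limma adjusted p = 0.385)). The SCC15 call was lost with equal library totals (limma adjusted p = 0.0613). Its reads can belong to UQCRH, so that its values are uncertain.

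Nearly all Complex IV members tested rose in both lines. All 4 single-isoform subunits and 8 of 9 isoform genes tested were higher in SCC25, against 38.3% of all genes. In SCC15 11 of 12 members tested were higher, against 30.9%. COX8A, the ubiquitous isoform of subunit 8, had the highest SCC15 value among members with a mean of at least 100, with 3141, 3232 and 6025 with squamocin and 1780.4, 1769 and 1802 with DMSO, no overlap and 1.14 ± 0.24 (SE, n = 3 per treatment, limma adjusted p = 0.00447). In SCC25 COX8A counted 5361, 5558 and 5421 with squamocin and 4246, 3959 and 4070.1 with DMSO and rose by 0.41 ± 0.04 (SE, n = 3 per treatment, limma adjusted p = 1.12e-06). It has the shortest exonic length of the tested members, 494 bases, and with the trend on length removed its SCC25 value became -0.018 and its SCC15 call was lost. COX6A1, the widely expressed isoform of subunit 6A, had the highest SCC25 value of those members, with 1772, 1798 and 1741 with squamocin and 892, 897 and 817 with DMSO and 1.03 ± 0.05 (SE, n = 3 per treatment, limma adjusted p = 2.41e-09). In SCC15 it rose by 1.10 ± 0.21 (limma adjusted p = 0.00314). COX7A2, the widely expressed isoform of subunit 7A, had the lowest SCC25 value of those members, with 2576, 2524 and 2774 with squamocin and 2437, 2280.2 and 2307 with DMSO, no overlap and 0.16 ± 0.05 (SE, n = 3 per treatment, limma adjusted p = 0.00888). It became -0.044 with equal library totals, and COX4I1, the main isoform of the regulatory subunit 4, went from 0.20 to -0.0083.

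COX6C, a small subunit of Complex IV, had the lowest SCC15 value, with 1542, 1489.8 and 3229 with squamocin and 1230.2, 1259 and 1209 with DMSO, in which the third squamocin library stood far above the other squamocin libraries. All squamocin libraries were above DMSO, but the change did not pass, at 0.66 ± 0.28 (SE, n = 3 per treatment, limma adjusted p = 0.0707). Without the third squamocin library it was 0.30 and passed (limma adjusted p = 2.8e-05). In SCC25 COX6C counted 2703, 2784 and 2858 with squamocin and 1408, 1335 and 1375 with DMSO and rose by 1.02 ± 0.05 (SE, n = 3 per treatment, limma adjusted p = 6.34e-10). COX5A and COX5B, which pack against the catalytic core, and COX7C were higher in both lines, at 0.90, 0.89 and 1.03 in SCC15 and 0.60, 0.39 and 0.80 in SCC25, and the SCC15 calls of COX5A (0.40) and COX5B (0.39) were lost with equal library totals. COX7A2L, a 7A-related protein that joins Complexes III and IV in supercomplexes, rose by 1.12 and 1.02, and COX7B by 0.99 and 0.89.

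The tissue-restricted isoforms of Complex IV were scarce, and 2 of them moved in opposite directions. COX6B2, the testis isoform of subunit 6B, counted 59.1, 62.7 and 46.0 with squamocin and 23.0, 12.7 and 28.8 with DMSO in SCC15 and 75.0, 71.8 and 91.0 with squamocin and 16.1, 19.8 and 23.0 with DMSO in SCC25. Squamocin exceeded DMSO in every library of both lines, by 1.40 ± 0.32 (SE, n = 3 per treatment, limma adjusted p = 0.00722) and 1.97 ± 0.22 (SE, n = 3 per treatment, limma adjusted p = 3.46e-06). Its ubiquitous partner COX6B1 rose by 0.97 in SCC15 and 0.68 in SCC25. COX7A1 (chr19:36150922-36152869, reverse strand), the heart and muscle isoform of subunit 7A, was read 0, 1 and 0 times with squamocin and 12, 19 and 17 times with DMSO in SCC15. Its mean there was below the minimum for the test, and the ratio of squamocin to DMSO was 0.0293 (95% exact interval 0.000728 to 0.171, counting error only). In SCC25 it was read 2, 4 and 3 times with squamocin and 27, 34 and 16 times with DMSO, without overlap, and fell by 2.37 ± 0.43 on the log2 scale (limma adjusted p = 0.000251). COX7A1 reached the minimum mean there only through DMSO, at 22.2 normalized counts against 3.34 with squamocin. It is 1 of the 7 lower members of SCC25, but not without DMSO replicate 2 or with at least 10 in every library. COX4I2, COX6A2 and COX8C, isoforms of lung, muscle and testis, ranged from 0 to 2.56, from 1.14 to 4.27 and from 0 to 3.49 normalized counts in SCC15 and were not tested, and COX7B2 is not a row used here.

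Complex V rose in most of its parts, while its soluble head was split in SCC25. The F1 head, made of ATP5F1A to ATP5F1E, was higher in 5 of 5 genes in SCC15, against 30.9% of all genes. In SCC25 3 were higher and 2 lower, against 38.3% and 38.5% of all genes. ATP5F1A (chr18:46080248-46104334, reverse strand), the alpha subunit that shares the catalytic sites with beta, counted 5347, 5637 and 8376 with squamocin and 4266, 4471 and 4525 with DMSO in SCC15 and 3104, 2882 and 3057 with squamocin and 4176, 4144 and 4125 with DMSO in SCC25. Treatments did not overlap in either line, with squamocin above DMSO in SCC15 and below it in SCC25, at 0.52 ± 0.17 (SE, n = 3 per treatment, limma adjusted p = 0.0309) and -0.46 ± 0.04 (SE, n = 3 per treatment, limma adjusted p = 5.24e-07). ATP5F1C (chr10:7788129-7807815, forward strand), the gamma subunit of the rotating shaft, counted 2520.1, 2564 and 4117 with squamocin and 1993, 2191 and 2054 with DMSO in SCC15 and 1080.3, 1172 and 1195 with squamocin and 1414, 1367 and 1319 with DMSO in SCC25. It too was opposite in the lines, at 0.52 ± 0.19 (SE, n = 3 per treatment, limma adjusted p = 0.0424) and -0.25 ± 0.06 (SE, n = 3 per treatment, limma adjusted p = 0.00118). The SCC15 calls of both genes were lost without any 1 of the DMSO libraries and with equal library totals, where they were 0.018 and 0.025, and their SCC25 calls were kept in both.

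The other F1 subunits were higher in both lines. ATP5F1E, the epsilon subunit, had the highest SCC25 value of Complex V, with 7005, 7300.0 and 6832 with squamocin and 2842, 2585 and 2743 with DMSO, no overlap and 1.37 ± 0.05 (SE, n = 3 per treatment, limma adjusted p = 5.25e-11), and rose by 1.13 ± 0.26 in SCC15 (limma adjusted p = 0.00717). The catalytic beta subunit ATP5F1B had the highest DMSO level per kilobase of exonic length in SCC15, 6941 normalized counts per kilobase, and rose by 0.88 in SCC15 and 0.28 in SCC25, where it was 0.075 and did not pass with equal library totals. Delta, ATP5F1D, rose by 0.84 and 0.70, and its SCC15 call was lost without any 1 of the DMSO libraries and with equal library totals (0.35). In SCC25 the F1 subunits thus ran from -0.46 to 1.37, although they are built into the same head.

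The small Fo subunits ATP5MD, ATP5ME, ATP5MF, ATP5MG and ATP5MPL, which line the membrane sector and help dimers to form, were higher in 5 of 5 genes in SCC25, from 0.63 to 1.22, and in 4 of 5 in SCC15, from 0.62 for ATP5MG, which did not pass, to 0.88. For these and the stalk counts below, the share of all genes called higher was 38.3% in SCC25 and 30.9% in SCC15. With equal library totals the 5 SCC25 calls were kept and the 4 SCC15 calls were lost, at 0.38 for ATP5MD, 0.31 for ATP5ME, 0.13 for ATP5MF and 0.29 for ATP5MPL. The SCC15 call of ATP5ME was also lost without any 1 of the DMSO libraries and that of ATP5MPL without DMSO replicate 1 or 2. The peripheral stalk, which holds the head still, was higher in 4 of 4 genes in SCC25, at 0.19 for ATP5PB, 0.33 for ATP5PF, 0.56 for ATP5PO and 0.77 for ATP5PD, but with equal library totals ATP5PB (-0.016) and ATP5PF (0.12) did not pass. In SCC15 ATP5PD alone of the stalk passed (0.76), a call lost without any 1 of the DMSO libraries and with equal library totals (0.26), and ATP5PB, ATP5PF and ATP5PO were at 0.18, 0.18 and 0.57. ATP5PB and ATP5PF were below 0 in SCC15 without the third squamocin library.

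ATP5IF1, which blocks ATP hydrolysis by the enzyme, counted 3729, 3957 and 6904 with squamocin and 2825, 2885 and 2611 with DMSO in SCC15 and 3082, 3024 and 3112 with squamocin and 2251, 1994 and 2089.9 with DMSO in SCC25. Squamocin was above DMSO without overlap in both lines, by 0.75 ± 0.22 (SE, n = 3 per treatment, limma adjusted p = 0.0206) and 0.54 ± 0.05 (SE, n = 3 per treatment, limma adjusted p = 5.42e-07), and the SCC15 call was lost without any 1 of the DMSO libraries and with equal library totals (0.26). ATP5S (chr14:50312326-50335558, forward strand), now named DMAC2L and known as coupling factor B, was the only member called lower in both lines, against 18.6% of the 14454 genes tested in both. It counted 129, 124 and 174 with squamocin and 284, 282 and 245 with DMSO in SCC15 and 230.1, 259 and 252 with squamocin and 429.6, 388 and 447 with DMSO in SCC25. Squamocin was below DMSO in every library, with log2 fold changes of -0.94 ± 0.16 (SE, n = 3 per treatment, limma adjusted p = 0.0018) and -0.77 ± 0.09 (SE, n = 3 per treatment, limma adjusted p = 4.16e-06). ATP5MGL, a copy of ATP5MG, did not exceed 3.6 normalized counts in any library, and the readthrough transcript ATP5MF-PTCD1 did not exceed 4.56. Neither was tested, and reads of ATP5MF-PTCD1 can be shared with ATP5MF.

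Subunit c, the ring that turns in the membrane, is encoded by ATP5MC1, ATP5MC2 and ATP5MC3, whose mature proteins are the same. All 3 genes rose in both lines, and ATP5MC2 rose most. ATP5MC2 (chr12:53632726-53677408, reverse strand) had the highest SCC15 value of Complex V, with 2926, 2961 and 5398 with squamocin and 1292, 1303 and 1235 with DMSO and 1.497 ± 0.23 (SE, n = 3 per treatment, limma adjusted p = 0.00109). In SCC25 it counted 4581, 4702 and 4363 with squamocin and 2456, 2602 and 2522 with DMSO and rose by 0.85 ± 0.04 (SE, n = 3 per treatment, limma adjusted p = 2.53e-09). ATP5MC1 rose by 1.04 ± 0.22 in SCC15 (limma adjusted p = 0.00512) and 0.56 ± 0.05 in SCC25 (limma adjusted p = 6.79e-07). ATP5MC3 rose least, by 0.58 ± 0.18 (limma adjusted p = 0.0261), a call lost without any 1 of the DMSO libraries and with equal library totals (0.086), and 0.42 ± 0.05 (limma adjusted p = 1.03e-05).

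The make-up of the subunit c transcripts therefore shifted, which a share within a library shows whatever its scaling. On the scale of normalized counts per kilobase of exonic length, ATP5MC2 made up 38.2%, 37.5% and 39.9% in the squamocin libraries of SCC15 and 28.9%, 27.5% and 26.9% in the DMSO libraries, or 38.5% ± 1.25 (SD, n = 3) against 27.8% ± 1.01. In SCC25 it made up 41.9%, 42.9% and 43.5% with squamocin and 35.5%, 37.8% and 36.9% with DMSO, or 42.8% ± 0.839 against 36.8% ± 1.19. Its squamocin shares were above all DMSO shares in both lines. The share of ATP5MC3 went the other way, from 41.9% ± 0.923 with DMSO to 30.9% ± 1.67 with squamocin in SCC15 and from 35.8% ± 1.00 to 31.0% ± 0.612 in SCC25. ATP5MC1 was at 30.3% ± 1.94 and 30.6% ± 1.33 in SCC15, overlapping, and at 27.5% ± 0.327 and 26.2% ± 0.236 in SCC25. The shares of the genes against each other depended on the length used, since with the canonical transcript ATP5MC2 made up 48.0% with DMSO and 58.3% with squamocin in SCC15, but the direction of each ATP5MC2 and ATP5MC3 shift did not.

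**Figure D3:**
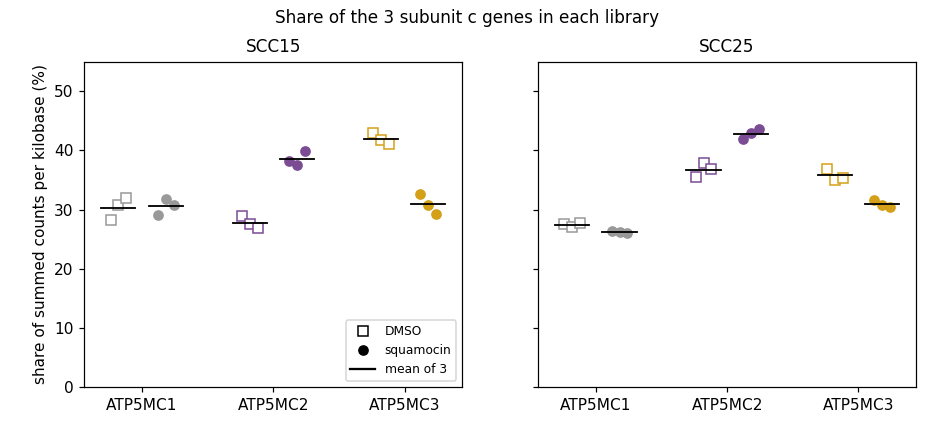
Share (y axis, percent) of ATP5MC1, ATP5MC2 and ATP5MC3 in the summed normalized counts per kilobase of exonic length of the 3 genes in each library, with DMSO as open squares, squamocin as filled circles and the mean of 3 as a line. ATP5MC2 goes from 27.8% to 38.5% in SCC15 and from 36.8% to 42.8% in SCC25, and ATP5MC3 falls in both lines.

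The response of each member was then compared between the lines with the contrast of SCC25 response minus SCC15 response over the 14454 genes tested in both. Of 49 members, 15 had a lower response in SCC25 and 1, SDHAF3, a higher one, against 26.1% and 26.0% of all genes. With all libraries the lower responses were thus near the share of all genes, and higher ones were fewer. Members with a lower response were 6 of 10 in Complex III, 2 of 8 in Complex II, 3 of 12 in Complex IV and 4 of 19 in Complex V. Only Complex III exceeded the share of all genes. All 4 Complex III core subunits were among them, with differences of -0.97 ± 0.11 (SE, limma adjusted p = 1.2e-05) for CYC1, -0.97 ± 0.25 (SE, limma adjusted p = 0.00507) for UQCRFS1, -0.97 ± 0.12 (SE, limma adjusted p = 1.94e-05) for UQCRC2 and -0.87 ± 0.20 (SE, limma adjusted p = 0.00261) for UQCRC1. Of the small Complex III subunits UQCRH was called, at -0.84, while UQCRB was at -0.04, and UQCRHL had the largest difference of all members, -1.26 ± 0.36 (SE, limma adjusted p = 0.0106). SDHA followed with -1.001 ± 0.14 (SE, limma adjusted p = 7.94e-05), ATP5F1A with -0.98 ± 0.18 (SE, limma adjusted p = 0.000644), SDHB with -0.86 ± 0.20 (SE, limma adjusted p = 0.0033) and ATP5F1C with -0.77 ± 0.21 (SE, limma adjusted p = 0.00689). The differences of the 9 Fo and stalk subunits lay between -0.0093 and 0.37. 13 of the 15 lower members passed in all 22 alternative fits. Without the third squamocin library of SCC15 all 15 were called lower again and the members with a higher response in SCC25 went from 1 to 15, among them all 5 Fo subunits and the stalk subunits ATP5PB, ATP5PD and ATP5PF. The share of all genes in that fit is not given here, so these counts cannot be set against it. The call of SDHAF3, 0.57 ± 0.20 (SE, limma adjusted p = 0.0331), was lost when any 1 of 9 libraries was left out, which were squamocin replicates 1 and 2 and DMSO replicates 2 and 3 of SCC15 and squamocin replicates 2 and 3 and all 3 DMSO replicates of SCC25.

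Put as calls, 30 of 49 members were higher in both lines, against 22.1% of all genes, and SDHA, UQCRC2, ATP5F1A and ATP5F1C were higher in SCC15 and lower in SCC25, against 5.44%. The plot of both responses shows them below the horizontal line.

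**Figure D4:**
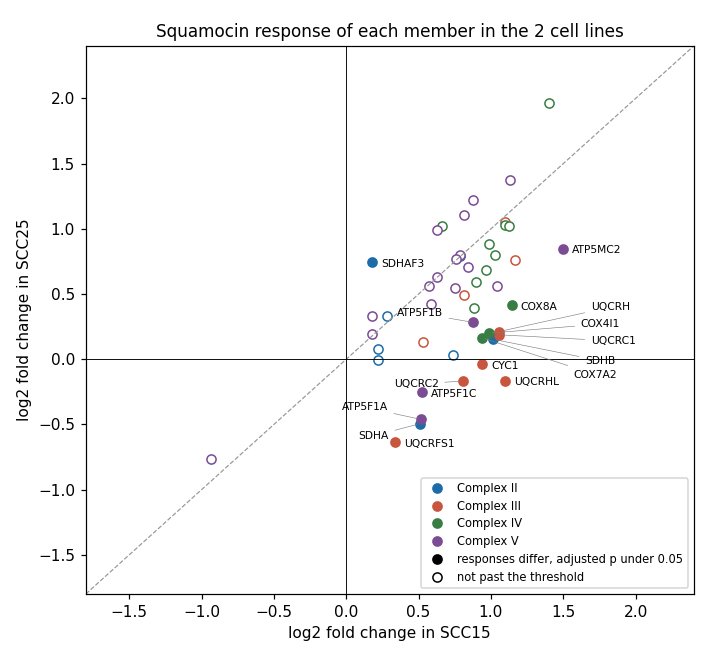
Log2 fold change with squamocin in SCC15 (x axis) against SCC25 (y axis) for the 49 members tested in both, coloured by complex, with filled symbols where the difference between the lines passed (limma adjusted p under 0.05) and a dashed line of equal response. Complex III members lie below the dashed line, and SDHA, UQCRC2, ATP5F1A and ATP5F1C lie right of 0 and below 0. With equal library totals the SCC15 values of SDHA, ATP5F1A and ATP5F1C move to between 0.0094 and 0.025.

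Members were short genes, and short genes as a whole rose. The median exonic length was 2249 bases over the 49 members tested in SCC15 and 5366.5 bases over all protein-coding genes. Among protein-coding genes the median log2 fold change went from 0.64 at up to 1000 bases to -0.27 above 10000 bases in SCC15, and from 0.41 to -0.11 in SCC25. In SCC15 the members had medians of 0.85 up to 1000 bases (4 members), 0.90 at 1000 to 2000 (13 members) and 0.78 at 3000 to 5000 (13 members), where all protein-coding genes had 0.64, 0.52 and 0.13. In SCC25 the members lay close to all protein-coding genes in the short ranges, at 0.49 against 0.41 up to 1000 bases and 0.33 against 0.28 at 1000 to 2000, and at 0.42 against -0.0047 at 3000 to 5000. Across the members, which are not independent, Spearman's rho of fold change and exonic length was 0.02 in SCC15 (n = 49) and 0.06 in SCC25 (n = 50), and with the length of the canonical transcript it was -0.18 and -0.14. With the trend on length removed within each library, SCC15 had 34 higher members and 1 lower, while SCC25 had 32 and 9, at medians of 0.63 and 0.34. The shares of all genes called higher and lower were 32.5% and 30.2% in SCC15 and 38.5% and 37.8% in SCC25. In SCC25 CYC1 and SDHAF1 were then added to the lower members, at -0.11 and -0.23.

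The subunits that mitochondrial DNA contributes to the same complexes went the other way. MT-CYB, MT-CO1, MT-CO2, MT-CO3, MT-ATP6 and MT-ATP8 were lower in 6 of 6 genes in both lines, at medians of -2.65 in SCC15 and -2.25 in SCC25. The share of all genes called lower was 30% in SCC15 and 38.5% in SCC25. The nuclear subunits of Complex I were close to the members, with 30 of 37 tested higher in SCC15 (median 0.80), against 30.9% of all genes. In SCC25 28 of 38 were higher and 3 lower (median 0.44), against 38.3% and 38.5%.

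Factors that build Complexes III, IV and V, and partner proteins, were called in both directions. Of 41 assembly factors and partner proteins tested in SCC15, 15 were higher and 8 lower (median 0.38), against 30.9% and 30% of all genes, and of 39 in SCC25, 17 were higher and 12 lower (median 0.09), against 38.3% and 38.5%. The copper chaperone COX17 had the highest value of the list in both lines, 1.30 ± 0.25 and 1.47 ± 0.05 (SE). Cytochrome c, CYCS, the carrier between Complexes III and IV, rose by 0.76 ± 0.20 in SCC15 and 0.99 ± 0.06 in SCC25, and NDUFA4, which binds Complex IV, by 0.77 and 0.93. SURF1, a heme-related assembly factor of Complex IV, was higher in SCC15 (0.59) and lower in SCC25 (-0.95). SCO2, another copper chaperone, rose by 1.10 in SCC15 and is not a row of the SCC25 values. BCS1L, which inserts the Rieske protein UQCRFS1, was at -0.23 in SCC15, which did not pass, and fell by 0.70 on the log2 scale in SCC25. For Complex V, TMEM70 fell by 0.75 in SCC15 and rose by 0.28 in SCC25, and ATPAF1 was at -0.12 in SCC15, which did not pass, and fell by 0.38 in SCC25. The lowest of the list were COA7 in SCC15 (-1.90) and TMEM177 in SCC25 (-1.81).

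Of 11 regulators of nuclear respiratory genes tested in SCC15, 5 were higher and 3 lower, against 30.9% and 30% of all genes. Of 10 in SCC25, 5 were higher and 4 lower, against 38.3% and 38.5%. NRF1 passed in neither line (-0.20 and 0.20). GABPB1 rose in both (0.68 and 1.00), as did YY1 (0.44 and 0.23) and CHCHD2 (1.27 and 0.42). GABPA was at -0.10 in SCC15, which did not pass, and rose by 0.79 in SCC25. ESRRA, a nuclear receptor, went up in SCC15 (0.60) and down in SCC25 (-0.32), and so did MYC (0.75 and -1.87), with a difference of -2.62 between the lines. TFAM, which packs and transcribes mitochondrial DNA, went down in SCC15 (-0.77) and up in SCC25 (0.23). The coactivator PPARGC1B was lower in both (-1.53 and -0.79), PPRC1 was at -0.30 in SCC15, which did not pass, and at -0.59 in SCC25, and PPARGC1A was lower in SCC15 (-0.86) and is not a row of the SCC25 values. Whether any of these changes bears on the members was not tested.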

How the data were processed

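RNA from 12 libraries, 3 per treatment in each of the cell lines SCC15 and SCC25, was sequenced. According to the labels and methods the authors aligned reads to GRCh38 with HISAT2 2.0.5 and counted them with featureCounts 1.5.0-p3. The deposited values are a signal, namely read counts scaled by a library size factor within a line (the SCC25 columns are named as FPKM), and whole reads were recovered for 100% of the values at a tolerance of 0.05. Columns of the authors' DESeq2 comparisons (fold changes and p-values) were not used. Genes with a mean of at least 10 were tested with limma 3.58.1 (R 4.3.3, trend) on log2 of the deposited value plus a pseudocount of 1, per line and for the difference between lines, with Benjamini-Hochberg adjustment over all genes tested. A fold change on this scale understates that of low genes. Groups came from the sample labels. The members named were all of Complex II, in each of Complexes III, IV and V the highest and lowest log2 fold change among members with a mean of at least 100, the subunit c genes and isoform pairs, the 5 largest differences between lines, members called in opposite directions, and ATP5IF1. Other members were added to complete each role. Exonic lengths were the union of exons in GENCODE 44, since the length assumed at the planning stage is not a column of the values. Promoter windows came from RefSeq (GRCh38.p14). The members and lists were chosen with earlier results of these data known, and the roles were assigned after the values had been seen. Alternatives comprised other pseudocounts and filters, TMM factors, equal totals, a length trend removed, count tests of the recovered reads (edgeR 4.0.16, DESeq2 1.42.0), a replicate block and each library left out. Intervals cover counting error only. The statistical steps were tested on simulated data.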

Additional observations from a re-analysis of the deposited data

Results flagged for a closer look

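The response in SCC25 minus the response in SCC15 passed the test of the difference itself (limma adjusted p under 0.05) in 16 of 49 members, against 26.0% of all genes called higher and 26.1% called lower. In Complex III it was -1.26 for UQCRHL, -0.97 for CYC1, -0.97 for UQCRFS1, -0.97 for UQCRC2, -0.87 for UQCRC1 and -0.84 for UQCRH on the log2 scale. In Complex II it was -1.001 for SDHA, -0.86 for SDHB and 0.57 for SDHAF3. In Complex IV it was -0.79 for COX4I1, -0.77 for COX7A2 and -0.73 for COX8A. In Complex V it was -0.98 for ATP5F1A, -0.77 for ATP5F1C, -0.65 for ATP5MC2 and -0.59 for ATP5F1B. UQCRHL shares near-identical sequence with UQCRH, and the cause of these differences was not tested. Counted in both directions and with all libraries, the members passed this test no more often than all genes did.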

How the results depend on the processing

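Over 34 named members, 974 alternative values were computed, of which 921 stayed on the same side of the threshold, 31 lost the call, 16 gained one and 6 changed sign with a call in either fit. Sign changes without a call are among the 921, and equal library totals turned the sign of 7 members in SCC15 and 8 in SCC25. With equal library totals, members called in SCC15 were 20 higher and 2 lower and 7 had a higher response in SCC25. The medians were then -0.10, 0.50, 0.49 and 0.26 for Complexes II to V in SCC15 and -0.092, -0.049, 0.48 and 0.35 for Complexes II to V in SCC25. Of members called in either fit, signs turned there for COX4I1 (-0.0083), COX7A2 (-0.044) and SDHB (-0.055) in SCC25 and for SDHC (-0.28 in SCC15 and -0.13 in SCC25), and for UQCRC1 (-0.021) and ATP5PB (-0.016) in SCC25. With the length trend removed, 3 members had a higher response in SCC25, COX8A in SCC25 turned to -0.018, and the SCC25 medians were 0.060 for Complex II, 0.058 for Complex III and 0.51 for Complex IV, with differences of -0.45 (II minus IV), -0.50 (II minus V), -0.46 (III minus IV), -0.50 (III minus V) and -0.047 (IV minus V). With TMM factors the Complex III median of SCC25 was 0.14, with all genes above 0 tested 2 members were lower in SCC15, ATP5S and COX7A1 (whose mean is under 10), and with at least 10 in every library the Complex IV median of SCC25 was 0.74 and III minus IV -0.58.

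Shares of ATP5MC1, ATP5MC2 and ATP5MC3 depended on length. With the canonical transcript length, chosen after seeing the data, they were 30.3%, 58.3% and 11.4% with squamocin and 34.3%, 48.0% and 17.6% with DMSO in SCC15, and 25.5%, 63.4% and 11.2% against 28.4%, 57.9% and 13.7% in SCC25. With no division by length they were 22.8%, 42.9% and 34.2% against 22.6%, 30.9% and 46.4% in SCC15, and 19.3%, 46.9% and 33.8% against 20.3%, 40.5% and 39.2% in SCC25.

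Leaving out 1 library gave 0 to 15 members with a higher response in SCC25. Medians in SCC25 ranged from 0.13 to 0.18 for Complex III, from 0.67 to 0.74 for Complex IV and from 0.54 to 0.63 for Complex V. Differences in SCC25 ranged from -0.49 to -0.44 (II minus V), from -0.58 to -0.50 (III minus IV), from -0.45 to -0.38 (III minus V) and from 0.046 to 0.18 (IV minus V), and in SCC15 from -0.11 to 0.040 (III minus IV) and from 0.16 to 0.27 (III minus V).

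With the replicate number as a block, 40 members were higher and 1 lower in SCC15, 37 higher and 7 lower in SCC25, and 1 higher and 16 lower in the difference. The shares of all genes called higher and lower were then 29.3% and 28.0% in SCC15 and 38.1% and 38.2% in SCC25. Same-numbered libraries correlated at -0.051 to 0.0078, so that no shared deviation was seen. This cannot tell whether they were prepared together. Members under 10 normalized counts on average were not tested at this depth, and with 3 libraries per treatment 1 library can decide a call. The causes of these changes were not tested.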
